A study of Mus musculus with 12 samples.

Results

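The interferon-stimulated genes examined here are 36 named genes of the response to interferon, measured in the irides of 4 mouse strains on 12 arrays. They were taken from a fixed list of symbols, matched to the platform annotation, and each gene is represented by its probe set with the highest mean over the 12 arrays. Of the 36, 34 had a probe set annotated to their symbol alone, out of 18193 such genes on the array. Isg15 and Ifi44 are not analysed here. Of the 34, 32 passed the filter on low values and were tested, among 13190 tested genes. Mx1 and Cxcl10 had means over the 12 arrays of 5.27 and 5.50, below the filter value of 5.653, and were not tested.

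The control strain was C57BL/6J. The 3 mutant strains share its background. Lyst, a gene of lysosome-related organelles, is mutated in B6-Lyst (strain name B6-Lystbg-J). Tyr, which encodes the pigment enzyme tyrosinase, is mutated in B6-albino, whose strain name is B6-(Cg)TyrC-2J. Both Tyrp1 (written Tryp1 there) and Gpnmb are mutated in the congenic strain called B6-D2 here, named B6.D2(Tryp1-Gpnmb-)/SJ, and their parts cannot be told apart in this design. All mice were 60 days old and described as healthy, and no interferon, infection or other treatment is named. Each array measured pooled irides of 2 mice (4 eyes), with 3 arrays per strain that the labels call biological replicates. The question of the series was how pigmentation mutations affect iris gene expression.

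Interferons are secreted proteins that signal through cell-surface receptors, JAK kinases and STAT proteins. Type I interferons act through a complex that includes STAT2 and IRF9 and binds the interferon-stimulated response element, and interferon gamma acts through the gamma-activated site. The induced genes encode sensors of viral RNA, enzymes that block viral replication, GTPases that act on intracellular pathogens and parts of the antigen-processing machinery, and many are expressed at a low resting level in uninfected tissue. The eye is an immune-privileged organ, and the iris holds resident macrophages beside its pigment cells, muscle and vessels.

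The upstream sequence of 5 members shows the elements through which these genes are known to be read. They were chosen to show the response element in members that later stand high together on 1 array (Ifit1, Rsad2, Gbp3, Oas1a) and the gamma-activated site in a member that does not (Irf1), and they do not represent all members. Each line gives the 250 bases before the transcript start, 5′ to 3′ on the gene's strand, from the RefSeq promoter table of build GRCm38.p6. Capitals in the first 4 mark the core of the response element, which is GAAA, any 2 bases and GAAA again, searched on both strands, and those in Irf1 mark TTCNNNGAA, the gamma-activated site, which reads the same on both strands.
Ifit1 (chr19:34640639-34640888, + strand): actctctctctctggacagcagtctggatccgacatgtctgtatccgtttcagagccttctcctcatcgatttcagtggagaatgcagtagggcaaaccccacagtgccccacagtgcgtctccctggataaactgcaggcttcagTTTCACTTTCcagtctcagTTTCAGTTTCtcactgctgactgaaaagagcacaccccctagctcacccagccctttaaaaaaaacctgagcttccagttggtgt
Rsad2 (chr12:26456453-26456702, - strand): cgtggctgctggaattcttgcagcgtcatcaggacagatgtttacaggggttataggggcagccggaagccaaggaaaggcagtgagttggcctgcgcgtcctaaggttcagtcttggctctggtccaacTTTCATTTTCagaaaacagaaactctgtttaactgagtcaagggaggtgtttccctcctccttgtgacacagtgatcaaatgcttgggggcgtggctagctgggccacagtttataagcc
Gbp3 (chr3:142559794-142560043, + strand): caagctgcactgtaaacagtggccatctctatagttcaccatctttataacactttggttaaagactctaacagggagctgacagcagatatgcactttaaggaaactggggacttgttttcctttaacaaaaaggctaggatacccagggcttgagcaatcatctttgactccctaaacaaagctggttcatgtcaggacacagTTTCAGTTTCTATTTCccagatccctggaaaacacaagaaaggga
Oas1a (chr5:120907526-120907775, - strand): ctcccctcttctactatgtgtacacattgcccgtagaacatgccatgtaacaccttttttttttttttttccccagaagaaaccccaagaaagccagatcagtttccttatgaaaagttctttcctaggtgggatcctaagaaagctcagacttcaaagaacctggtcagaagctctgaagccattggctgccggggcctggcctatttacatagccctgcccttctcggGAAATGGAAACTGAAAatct
Irf1 (chr11:53769764-53770013, + strand): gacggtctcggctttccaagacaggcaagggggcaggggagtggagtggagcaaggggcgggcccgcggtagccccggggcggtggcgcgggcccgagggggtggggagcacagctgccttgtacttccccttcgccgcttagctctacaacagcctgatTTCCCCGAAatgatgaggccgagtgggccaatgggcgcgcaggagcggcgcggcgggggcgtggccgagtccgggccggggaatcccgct
The Ifit1 window held 2 matches, 104 and 85 bases before the start, and the Rsad2 window held 1, at 120 bases. Gbp3 held 2 overlapping matches at 45 and 39 bases and Oas1a 2 overlapping matches at 20 and 14 bases. The Irf1 match lay 90 bases before the start.

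Of the 32 tested members, 25 had a window in the promoter table, which runs from 250 bases before to 50 bases after the start. The response element core stood in the windows of 13 of these (52%), against 3.47% of the 10592 tested genes with a window and 3.44% of all 32851 windows. TTCNNNGAA stood in 8 (32%), against 8.11% of tested genes with a window and 8.3% of all windows. Both motifs stood in the windows of 4 members (Oas1a, Bst2, Ifitm3 and Igtp), and in Bst2 and Ifitm3 they shared letters. The response element core stood in 11 of 19 windows of members that were highest on C57BL/6J replicate 3 and in 2 of 6 of the others. Oasl2, which stood high there, had no match, while Bst2 and Ifitm3, which did not, had 2 each. A match describes the letters of the window and is not a measured binding site. Tap1 and Psmb9 are transcribed away from each other from chr17:34187306-34187605 (+ strand) and chr17:34187281-34187580 (- strand), so their windows share most bases.

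Values are on the log2 scale as deposited, and differences are log2 differences. Column medians of the arrays lay between 6.05 and 6.14. Markers of iris pigment cells, muscle and anterior segment (11 of 12 tested) had a mean level of 11.13 to 12.01 per array. Macrophage markers (11 of 12 tested) had a mean level of 10.15 to 10.37 on B6-Lyst arrays and 8.10 to 8.83 on all others. The spiked poly-A controls averaged 6.45 to 7.16 on C57BL/6J arrays and 4.79 to 5.51 on the mutants' arrays. A difference between C57BL/6J and the mutants therefore cannot be told apart from a difference in sample preparation. The hybridization controls averaged 8.98 to 9.17 on B6-Lyst arrays and 9.28 to 9.55 on those of the other mutants. They averaged 9.60 to 9.85 on C57BL/6J arrays. The part of array handling in pairs of B6-Lyst with another mutant was not tested. The corneal keratin Krt12 stood at 12.86, 10.45 and 13.81 on C57BL/6J replicate 1, B6-albino replicate 1 and B6-D2 congenic replicate 2, and at 5.96 to 7.12 elsewhere. The actin control, whose 3′ minus 5′ difference grows as RNA is degraded, was 4.30 on C57BL/6J replicate 3 and 1.84 to 2.72 on the other 11 arrays, and the Gapdh control gave 4.01 against 1.85 to 3.24. That array also stands apart in the members, so differences from C57BL/6J that it moves are also given without it. It was singled out after the members' values were seen, so p-values and calls without it are a description.

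No member passed the test in any of the 6 pairs of strains. Members were called at an adjusted p under 0.05 from limma with Benjamini-Hochberg adjustment over 27022 probe sets. Against C57BL/6J, 0 of 32 members were called in B6-Lyst (percent of all probe sets called 2.53%), 0 in B6-albino (0.348%), and likewise 0 in B6-D2 congenic (0.0407%). Between mutants, 0 members were called for B6-Lyst against B6-albino (1.84%), B6-Lyst against B6-D2 congenic (0.933%) and B6-albino against B6-D2 congenic (0.0851%). The test for any difference among the 4 strains called 2.09% of probe sets and no member. At an unadjusted p under 0.05, 4 members stood out for B6-Lyst, 14 for B6-albino and 2 for B6-D2 congenic against C57BL/6J, where 17.4%, 19.4% and 17.8% of all probe sets did. Between mutants 2, 0 and 4 members did so for the pairs in the order given, where 19.1%, 9.7% and 8.49% of all probe sets did. In a simulation of the comparison of B6-Lyst with C57BL/6J, the same test recovered 74% of probe sets with a log2 change of 1. The changed probe sets were drawn at random from all those tested. The members spread more, with a median C57BL/6J SD of 0.49 against 0.21 over all tested genes, so 74% does not describe them.

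The members nevertheless lay mostly on the low side of C57BL/6J. In B6-albino irides all 32 members had a lower mean than in C57BL/6J, with a median difference of -0.49 (1.41-fold), where 43.9% of all tested genes were lower and their median was 0.04. In B6-Lyst, 28 members were lower and 4 higher, with a median of -0.31 (1.24-fold) against 0.00 over all genes. In B6-D2 congenic, 24 were lower and 8 higher, with a median of -0.21 (1.16-fold) against 0.06. These comparisons share the 3 C57BL/6J arrays and are not independent of each other. In bulk tissue, fewer cells that express a gene and less RNA per cell cannot be told apart.

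**Figure D1:**
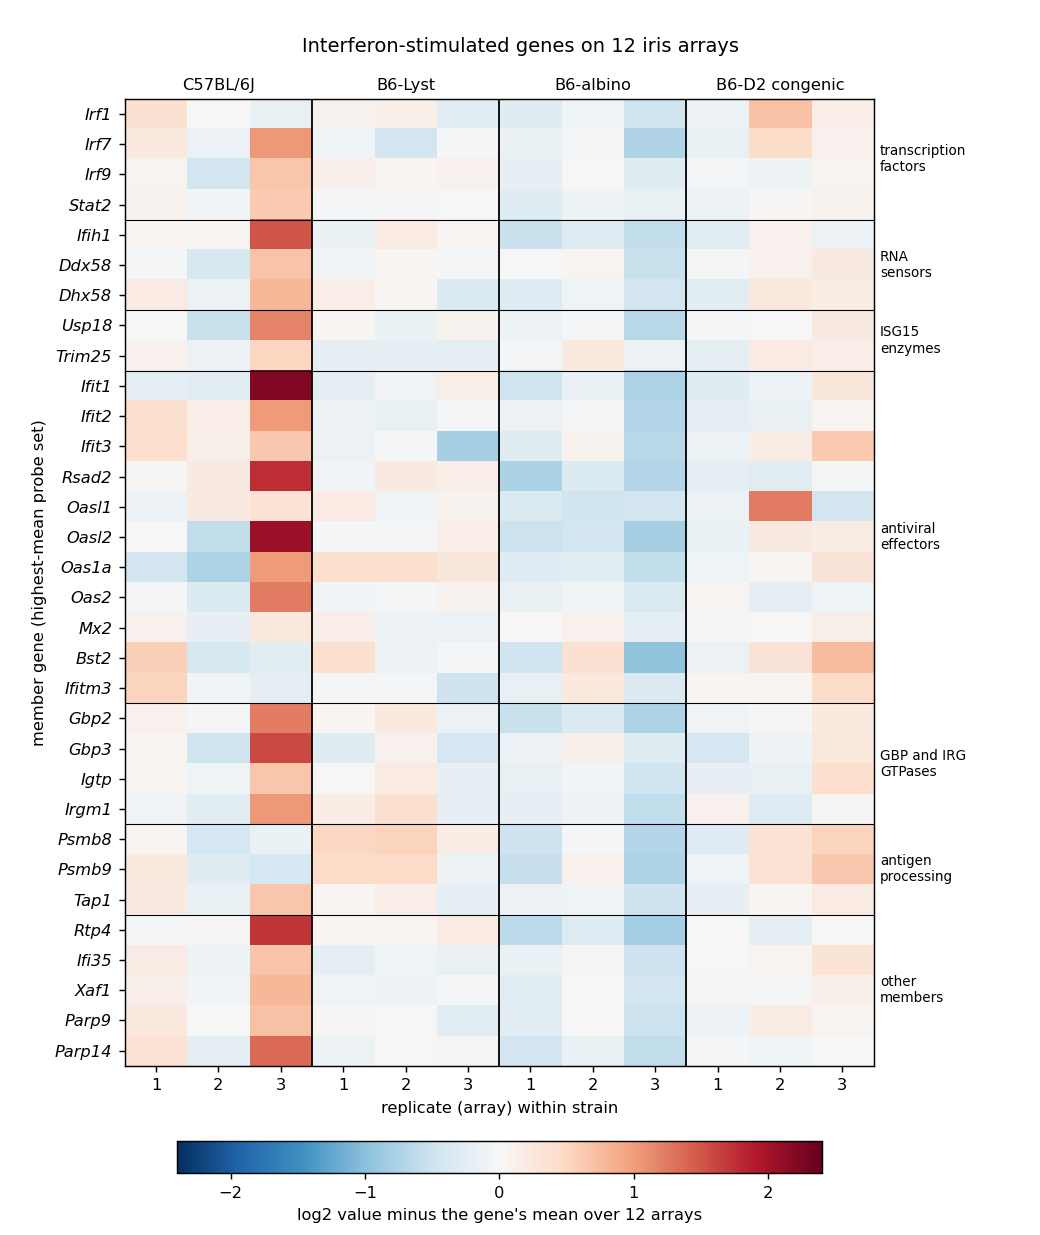
Each cell is the log2 value of 1 of the 32 tested members (rows, grouped by role) on 1 of the 12 arrays (columns, by strain and replicate) minus that gene's mean over the 12 arrays, from blue (below) to red (above). C57BL/6J replicate 3 is the highest array for 26 members, and B6-albino replicate 3 is the lowest for 23.

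The transcription factors of the response were Irf1, Irf7, Irf9 and Stat2. Irf7, the factor that amplifies type I interferon production, read 7.23, 6.86 and 8.04 on the 3 C57BL/6J arrays, 6.94, 6.55 and 6.97 in B6-Lyst, 6.83, 7.45 and 7.10 in B6-D2 congenic and 6.85, 6.95 and 6.29 in B6-albino. The groups overlapped, and the high array was C57BL/6J replicate 3. Its difference from C57BL/6J was -0.68 (SE 0.29, adjusted p = 0.22) in B6-albino and -0.56 (SE 0.29, adjusted p = 0.351) in B6-Lyst. These were -0.35 (adjusted p = 0.521) and -0.22 (adjusted p = 0.722) without C57BL/6J replicate 3. Irf1, a factor driven by both interferon types, behaved differently. It read 9.67, 9.31 and 9.12 in C57BL/6J, against 9.39, 9.45 and 9.04 in B6-Lyst, 9.17, 10.00 and 9.46 in B6-D2 congenic and 9.01, 9.20 and 8.82 in B6-albino. Its highest array was B6-D2 congenic replicate 2, the array with the highest Krt12, and C57BL/6J replicate 3 was the lowest of its strain. Irf9 and Stat2, the partners in the type I complex, were again highest on C57BL/6J replicate 3, at 8.45 and 6.98. Over the other 11 arrays, Irf9 read 7.35 to 7.91 and Stat2 6.05 to 6.43. Differences from C57BL/6J lay between -0.01 and -0.26 for Irf9 and between -0.23 and -0.41 for Stat2. With that array left out they turned to 0.02 to 0.27 for Irf9 and were -0.20 to -0.01 for Stat2.

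Among the RNA sensors, Ifih1 encodes MDA5, which detects long double-stranded RNA. Ifih1 read 9.00, 9.01 and 10.46 in C57BL/6J, against 8.79, 9.14 and 9.01 in B6-Lyst, 8.70, 9.06 and 8.82 in B6-D2 congenic and 8.42, 8.65 and 8.36 in B6-albino. The 3 B6-albino arrays lay below all arrays of C57BL/6J, and also below all those of B6-Lyst and B6-D2 congenic. The difference of B6-albino from C57BL/6J was -1.02 (SE 0.32, adjusted p = 0.128), and that of B6-D2 congenic was -0.63 (SE 0.32, adjusted p = 0.315). They were -0.53 (adjusted p = 0.187) and -0.15 (adjusted p = 0.777) without C57BL/6J replicate 3. Dhx58, which encodes the regulator LGP2, read 6.33, 5.99 and 6.93 in C57BL/6J, against 6.29, 6.18 and 5.81 in B6-Lyst, 5.89, 6.39 and 6.32 in B6-D2 congenic and 5.82, 6.04 and 5.67 in B6-albino. Its groups overlapped, and its largest difference from C57BL/6J was -0.57 (SE 0.23, adjusted p = 0.206), in B6-albino, and this was -0.31 (adjusted p = 0.488) without C57BL/6J replicate 3. Ddx58, which encodes the sensor RIG-I, read 9.27 on C57BL/6J replicate 3 and 8.05 to 8.80 elsewhere. Its differences from C57BL/6J were -0.25 to 0.01, and 0.05 to 0.31 without that array. Dimmer Ddx58 probe sets gave -0.33 to -0.29 and -0.65 to -0.35 with all arrays.

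Usp18 removes the ubiquitin-like protein ISG15 from its targets and restrains receptor signalling, and Trim25 is a ubiquitin and ISG15 ligase that activates RIG-I. Usp18 read 9.72 on C57BL/6J replicate 3 and 7.86 to 8.74 on the other arrays. Trim25 read 10.74, 10.49 and 11.14 in C57BL/6J, against 10.39, 10.43 and 10.39 in B6-Lyst, 10.42, 10.82 and 10.79 in B6-D2 congenic and 10.60, 10.86 and 10.49 in B6-albino. The B6-Lyst arrays lay below all C57BL/6J and all B6-albino arrays and spread little (SD 0.02, n = 3). The difference of B6-Lyst was -0.39 (SE 0.17, adjusted p = 0.281) from C57BL/6J and -0.25 (SE 0.17, adjusted p = 0.468) from B6-albino. The first was -0.21 (adjusted p = 0.586) without C57BL/6J replicate 3.

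The IFIT proteins bind viral RNA and block its translation. Ifit1 read 9.35, 9.31 and 11.81 in C57BL/6J, against 9.38, 9.50 and 9.72 in B6-Lyst, 9.29, 9.44 and 9.86 in B6-D2 congenic and 9.11, 9.43 and 8.84 in B6-albino. A single array was high, and the other 11 lay within 8.84 to 9.86. Its difference from C57BL/6J was -0.62 in B6-Lyst and -0.63 in B6-D2 congenic (SE 0.52 each, adjusted p = 0.583 and 0.541). Without C57BL/6J replicate 3 both differences turned to 0.20 (SE 0.20, adjusted p = 0.697 and 0.77).

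Ifit2 and Ifit3 kept a lower value in B6-Lyst and B6-albino without that array. Ifit2 read 9.84, 9.62 and 10.48 in C57BL/6J, against 9.32, 9.28 and 9.40 in B6-Lyst, 9.24, 9.28 and 9.52 in B6-D2 congenic and 9.31, 9.43 and 8.75 in B6-albino. All 9 mutant arrays lay below all 3 of C57BL/6J. Its difference from C57BL/6J was -0.65 in B6-Lyst, -0.63 in B6-D2 congenic and -0.82 in B6-albino (SE 0.22, adjusted p = 0.15, 0.197 and 0.102). Without C57BL/6J replicate 3 the differences were -0.40, -0.38 and -0.57 (SE 0.19, adjusted p = 0.368, 0.501 and 0.222). Ifit3 read 11.34, 11.07 and 11.60 in C57BL/6J, against 10.81, 10.91 and 10.14 in B6-Lyst, 10.81, 11.12 and 11.57 in B6-D2 congenic and 10.66, 11.02 and 10.28 in B6-albino. B6-Lyst and B6-albino lay wholly below C57BL/6J, as 14.6% and 11% of all probe sets did, while B6-D2 congenic overlapped it. Its differences were -0.72 in B6-Lyst and -0.68 in B6-albino (SE 0.26, adjusted p = 0.182 and 0.191), and -0.58 and -0.55 without C57BL/6J replicate 3 (SE 0.29). A near-identical copy of Ifit3 (Ifit3b) may share this probe set, which was not tested.

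Rsad2 encodes viperin, which makes a chain-terminating nucleotide. It read 9.01, 9.19 and 10.76 in C57BL/6J, against 8.92, 9.20 and 9.15 in B6-Lyst, 8.74, 8.73 and 8.93 in B6-D2 congenic and 8.22, 8.66 and 8.27 in B6-albino. B6-albino was low on every array, and the 4 strains ordered themselves with B6-albino below B6-D2 congenic, which lay below all C57BL/6J arrays, while B6-Lyst overlapped C57BL/6J. The difference of B6-albino from C57BL/6J was -1.27 (SE 0.35, adjusted p = 0.107), the most negative of any member in any pair, and that of B6-D2 congenic was -0.86 (SE 0.35, adjusted p = 0.249). Without C57BL/6J replicate 3 they were -0.72 (SE 0.16, adjusted p = 0.135) and -0.30 (SE 0.16, adjusted p = 0.526). A further tested probe set of Rsad2 read 5.71 to 5.99 in B6-albino and 6.25 to 8.16 in C57BL/6J, with a difference of -1.16 (adjusted p = 0.145).

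The oligoadenylate synthetases make the second messenger that activates RNase L. Oasl2, a catalytically active OAS-like protein, read 8.07, 7.49 and 10.15 in C57BL/6J, against 8.04, 8.05 and 8.25 in B6-Lyst, 7.92, 8.31 and 8.26 in B6-D2 congenic and 7.58, 7.64 and 7.29 in B6-albino. C57BL/6J replicate 3 was high, and B6-albino lay below every array of the other mutants. Its difference from C57BL/6J was -1.06 in B6-albino (SE 0.49, adjusted p = 0.264), and -0.27 (SE 0.20, adjusted p = 0.546) without C57BL/6J replicate 3. Oas2 read 8.87 on C57BL/6J replicate 3 and 7.29 to 7.71 elsewhere.

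Oas1a is an oligoadenylate synthetase proper. It read 7.91, 7.61 and 9.37 in C57BL/6J, against 8.72, 8.73 and 8.62 in B6-Lyst, 8.24, 8.39 and 8.66 in B6-D2 congenic and 8.03, 8.09 and 7.76 in B6-albino. B6-Lyst lay above all arrays of B6-albino and above C57BL/6J replicates 1 and 2, but below replicate 3. Its difference from C57BL/6J was 0.39 (SE 0.34, adjusted p = 0.607). Without C57BL/6J replicate 3 it was 0.93 (SE 0.16, adjusted p = 0.0184), where 1.19% of all probe sets were called. That array was set aside after the members' values were seen, so a call without it is a description. Against B6-albino the difference was 0.73 with all arrays (SE 0.34, adjusted p = 0.278) and 0.73 without C57BL/6J replicate 3 (SE 0.14, adjusted p = 0.0287), because that array enters the shared estimate of the spread. Without C57BL/6J replicate 3, Oas1a was also higher in B6-D2 congenic than in C57BL/6J, by 0.67 (SE 0.16, adjusted p = 0.299). In B6-Lyst, 9 of 11 tested macrophage markers were called higher than in C57BL/6J (median 1.39), and 6 without C57BL/6J replicate 3 (median 1.57). In B6-D2 congenic 0 were called (median 0.33, and 0.29 without that array). On C57BL/6J replicate 3, where Oas1a was highest, macrophage markers had a mean level of 8.36. The part of macrophages in the Oas1a values was not tested. Near-identical Oas1 copies may share the probe set.

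Oasl1, which restrains Irf7 translation, read 6.08, 6.43 and 6.57 in C57BL/6J, against 6.41, 6.12 and 6.30 in B6-Lyst, 6.08, 7.46 and 5.79 in B6-D2 congenic and 5.88, 5.75 and 5.79 in B6-albino. Its highest array was B6-D2 congenic replicate 2, again the array with the highest Krt12, and B6-albino lay below C57BL/6J and B6-Lyst on every array.

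The remaining effectors belong to families that act on entry, replication and release. Mx2, of the dynamin-like GTPase family, read 6.17, 5.87 and 6.33 in C57BL/6J, against 6.22, 5.94 and 5.92 in B6-Lyst, 6.02, 6.07 and 6.20 in B6-D2 congenic and 6.07, 6.17 and 5.84 in B6-albino. Its values overlapped between all strains, and its differences from C57BL/6J were -0.10 to -0.03, and 0.01 to 0.08 without C57BL/6J replicate 3. Mx1, which is defective in C57BL/6 mice, read 6.34 on C57BL/6J replicate 3 and 4.98 to 5.38 on the other arrays. Bst2 encodes tetherin, which holds budding virions at the membrane. It read 7.99, 7.05 and 7.18 in C57BL/6J, against 7.82, 7.29 and 7.39 in B6-Lyst, 7.29, 7.74 and 8.18 in B6-D2 congenic and 6.94, 7.79 and 6.46 in B6-albino. The strains overlapped, and its differences of 0.33 in B6-D2 congenic (SE 0.35, adjusted p = 0.643) and -0.34 in B6-albino (SE 0.35, adjusted p = 0.603) were no larger than their errors. Ifitm3, which blocks viral fusion in endosomes, read 11.52, 10.91 and 10.77 in C57BL/6J, against 10.94, 10.95 and 10.48 in B6-Lyst, 11.03, 11.04 and 11.44 in B6-D2 congenic and 10.81, 11.23 and 10.63 in B6-albino. C57BL/6J replicate 3 was the lowest of its strain here. B6-Lyst lay below all B6-D2 congenic arrays, by -0.38 (SE 0.23, adjusted p = 0.623).

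The guanylate-binding and immunity-related GTPases attack the vacuoles of intracellular pathogens. Gbp3 read 7.83, 7.29 and 9.34 in C57BL/6J, against 7.47, 7.87 and 7.36 in B6-Lyst, 7.36, 7.64 and 8.02 in B6-D2 congenic and 7.63, 7.89 and 7.47 in B6-albino. A single array was high, and the mutants' means lay within 0.10 of each other. Gbp2 stood lower in B6-albino, at 8.12, 8.30 and 7.90, than in C57BL/6J, at 8.75, 8.61 and 9.87. Its B6-albino arrays also lay below all arrays of B6-Lyst (8.69, 8.88 and 8.51) and B6-D2 congenic (8.58, 8.68 and 8.88). The difference from C57BL/6J was -0.97 (SE 0.27, adjusted p = 0.109), and a further Gbp2 probe set gave -0.80 (adjusted p = 0.0935). Leaving out C57BL/6J replicate 3 moved the first value to -0.57 (adjusted p = 0.186). Irgm1 read 9.90 on C57BL/6J replicate 3 and 8.27 to 9.25 elsewhere, and Igtp read 10.37 there and 9.23 to 10.10 elsewhere.

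The antigen-processing members did not share the high C57BL/6J array as a group. Psmb8 and Psmb9 encode catalytic subunits of the immunoproteasome, which trims peptides for MHC class I. Psmb8 read 7.18, 6.70 and 6.96 in C57BL/6J, against 7.61, 7.65 and 7.30 in B6-Lyst, 6.81, 7.47 and 7.66 in B6-D2 congenic and 6.62, 7.08 and 6.41 in B6-albino. B6-Lyst lay above all arrays of C57BL/6J and B6-albino, by 0.57 (SE 0.24, adjusted p = 0.234) and 0.82 (SE 0.24, adjusted p = 0.104). A dimmer Psmb8 probe set gave 0.02 (adjusted p = 0.952) against C57BL/6J and 0.37 (adjusted p = 0.118) against B6-albino, so the probe sets differed for the first pair. Psmb9 read 7.24, 6.71 and 6.58 in C57BL/6J, against 7.45, 7.46 and 6.87 in B6-Lyst, 6.89, 7.34 and 7.64 in B6-D2 congenic and 6.45, 7.11 and 6.26 in B6-albino. Its strains overlapped, and its differences from C57BL/6J were 0.42 in B6-Lyst and 0.45 in B6-D2 congenic (SE 0.27, adjusted p = 0.471 and 0.40). The same 9 macrophage markers were higher in B6-Lyst, and their part in the immunoproteasome values was not tested. Tap1, a subunit of the peptide transporter, followed the main pattern, at 7.56 on C57BL/6J replicate 3 and 6.40 to 7.12 on the other arrays.

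Of the other members, Rtp4 encodes a chaperone for receptor transport that also restrains the interferon response. It read 9.37, 9.45 and 11.14 in C57BL/6J, against 9.47, 9.48 and 9.62 in B6-Lyst, 9.41, 9.21 and 9.44 in B6-D2 congenic and 8.80, 9.11 and 8.58 in B6-albino. Its B6-albino arrays were below all 9 others. The difference from C57BL/6J was -1.16 in B6-albino (SE 0.37, adjusted p = 0.133), and -0.58 (SE 0.16, adjusted p = 0.175) without C57BL/6J replicate 3. Ifi35, an interferon-induced leucine zipper protein, read 11.14, 10.83 and 11.63 in C57BL/6J, against 10.71, 10.85 and 10.77 in B6-Lyst, 10.96, 11.01 and 11.27 in B6-D2 congenic and 10.78, 10.97 and 10.46 in B6-albino. C57BL/6J replicate 3 was highest here. Relative to the mean of replicates 1 and 2, that array stood at 0.65 in this probe set. Further Ifi35 probe sets gave 0.47 and -0.09. The ADP-ribosyltransferases Parp9 and Parp14 and the pro-apoptotic factor Xaf1 read 9.68, 9.64 and 9.04 on C57BL/6J replicate 3. On the other arrays they lay within 8.46 to 9.21, 7.70 to 8.64 and 7.78 to 8.38. The chemokine Cxcl10, below the filter, read 5.17 to 5.95 over the 12 arrays.

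**Figure D2:**
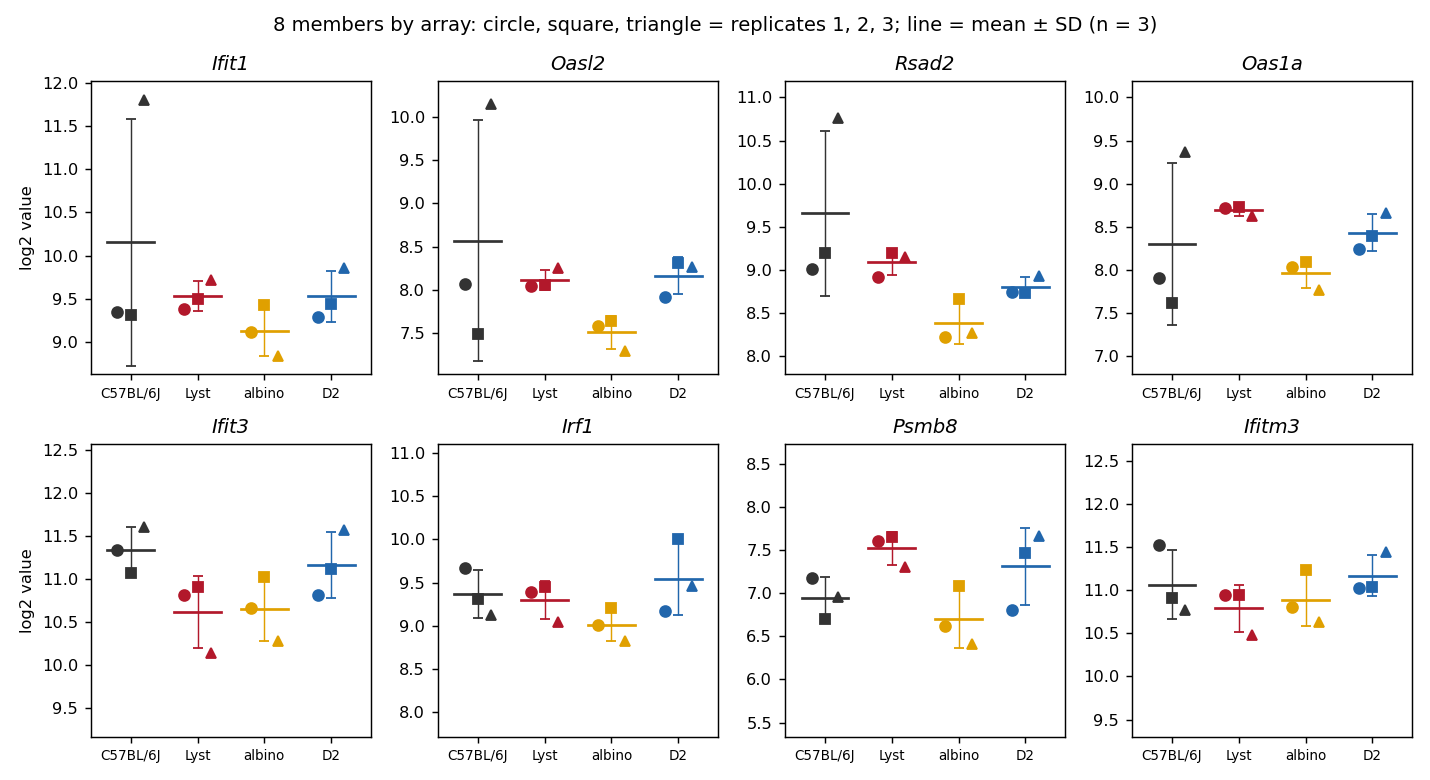
Log2 values (y axes of equal span) of 8 members on 3 arrays of each strain (x axes), with the mean and SD of 3 arrays. Ifit1, Oasl2, Rsad2 and Oas1a show the high C57BL/6J replicate 3 (triangle), which Irf1, Psmb8 and Ifitm3 lack.

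C57BL/6J replicate 3 carried most of the members' spread. The array was singled out after the values were seen, so the following counts are a description and carry no test. It was the highest of the 12 arrays for 26 of 32 members (81.2%), where 11.6% of all tested genes had it highest. Measured against the mean of replicates 1 and 2, the members' median on it was 0.77 and that of all genes -0.14. In this measure 12 members exceeded 1 log2 unit, where 0.432% of all tested genes, 57 in number, did. Ifit1 exceeded it by 2.48 (5.58-fold), more than any other tested gene, and Oasl2 by 2.37 (5.18-fold). Gbp3, Rtp4, Rsad2 and Oas1a followed with 1.78, 1.73, 1.66 and 1.61. Ifih1, Usp18, Oas2, Parp14, Irgm1 and Gbp2 lay between 1.19 and 1.46. A further probe set of Gbp2 gave only 0.43, and one of Rsad2 gave 1.77. The 6 members that were not highest there were Irf1, Oasl1, Bst2, Psmb8, Psmb9 and Ifitm3, with values of -0.37, 0.32, -0.34, 0.02, -0.39 and -0.45. Under the same rule, each of the other 11 arrays had at most 1 member more than 1 log2 unit above the mean of its strain's other arrays. For C57BL/6J replicates 1 and 2 that mean includes the high replicate 3, which holds their counts down. On replicate 2, 6 members lay more than 1 log2 unit below it, where 17 of all tested genes did.

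**Figure D3:**
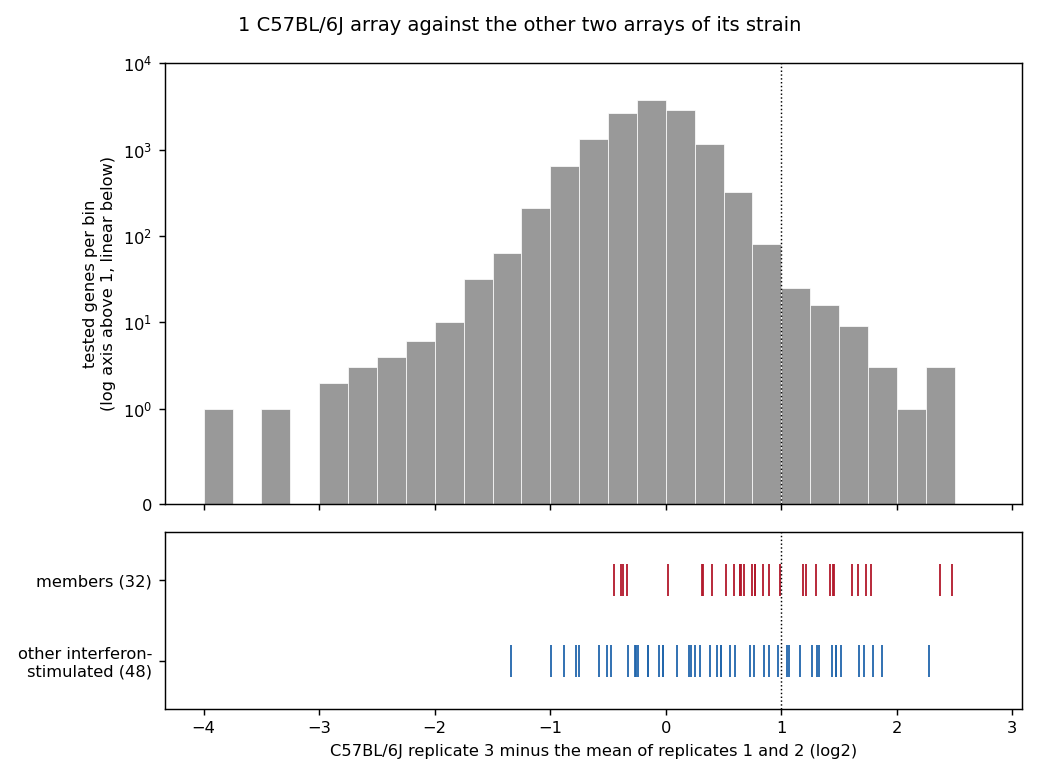
Top, number of the 13190 tested genes (y axis, log above 1) by their log2 value on C57BL/6J replicate 3 minus the mean of replicates 1 and 2 (x axis). Bottom, the same value for each of the 32 tested members and of 48 other interferon-stimulated genes, with a dotted line at 1 that 12 members pass.

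Genes outside the member list stood high on the same array. Of the 57 genes above 1 log2 unit, 12 were members, 15 came from a list of 48 other tested interferon-stimulated genes, and 30 were on neither list. The 15 included Phf11d at 2.28, Trim30a at 1.87, Cmpk2, a mitochondrial nucleotide kinase beside Rsad2, at 1.79, and Iigp1, an immunity-related GTPase, at 1.44. Of the 30, Gm4951 stood at 2.16 and Trim34a at 1.51, while the potassium channel gene Kcnh3 stood at 1.53. For 27 of the 48 other interferon-stimulated genes (56.2%) this array was the highest of the 12. Macrophage markers had a mean level of 8.36 on it, against 8.57 and 8.44 on the other C57BL/6J arrays. Lymphocyte markers (3 of 10 tested) averaged 7.23 there against 6.73 and 6.83, with Cd8a at 8.08, the highest of the 12 arrays. Plasmacytoid dendritic cell markers (4 of 6 tested, Bst2 among them) averaged 7.70 against 8.02 and 7.59, and Siglech, their defining marker, lay at 5.22 to 5.72 on all arrays, around the filter value. Iris markers averaged 11.13, against 12.01 and 11.44. Of these 11 markers 10 were lowest of the strain on this array, where 52% of all tested genes were. The lens markers averaged 8.10, against 8.88 and 11.05, the retinal markers 7.13, against 7.19 and 9.31, and the corneal markers 6.61, against 12.04 and 8.07. More genes were low than high on this array, with 335 of the 13190 tested genes over 1 log2 unit below replicates 1 and 2 and 57 above. Together with its actin and Gapdh control differences, these values move with the array, and their part in the members' values was not tested.

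**Figure D4:**
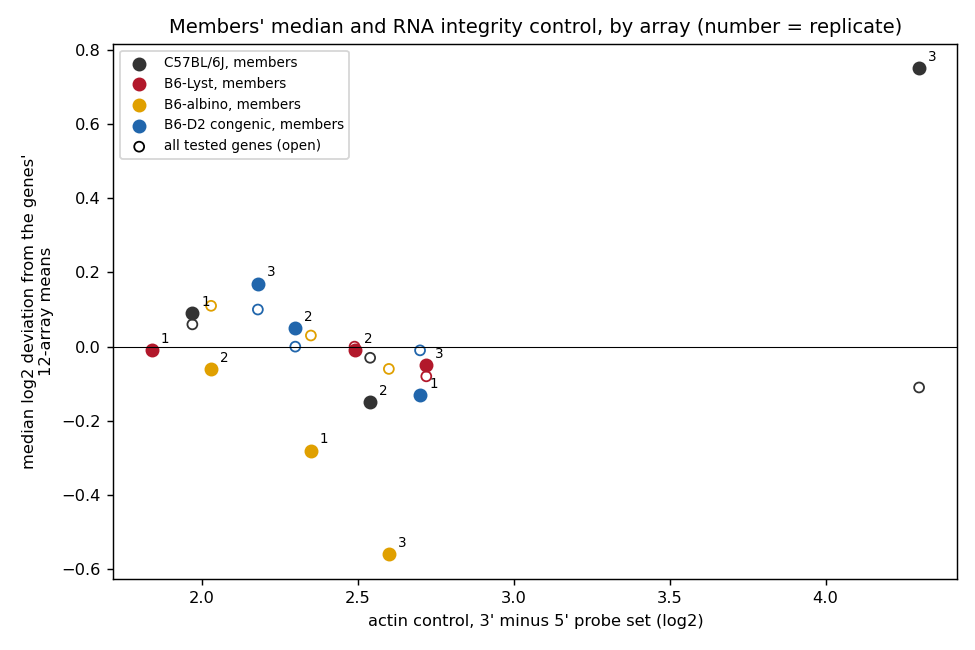
Median over the 32 members of the log2 deviation from each gene's 12-array mean (filled) and the same over all 13190 tested genes (open) for each array (y axis), against the actin control's difference between its 3′ and 5′ probe sets (x axis, log2). C57BL/6J replicate 3 lies apart on both axes, with an actin difference of 4.30, a members' median of 0.75 and a median of all genes of -0.11.

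The negative medians against C57BL/6J depended on that array in B6-Lyst and B6-D2 congenic. Without it, 16 members were higher and 16 lower in B6-Lyst, with a median of 0.00, and 22 were higher and 10 lower in B6-D2 congenic, with a median of 0.07 and 0 called (0.0185% of probe sets called). In B6-albino 26 members stayed lower and 6 were higher, with a median of -0.28, and 0 were called (0.0259% of probe sets called, smallest member adjusted p = 0.135). With the actin difference as a covariate over all 12 arrays, the medians were -0.16 for B6-Lyst, -0.43 for B6-albino and -0.10 for B6-D2 congenic, and again no member was called.

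**Figure D5:**
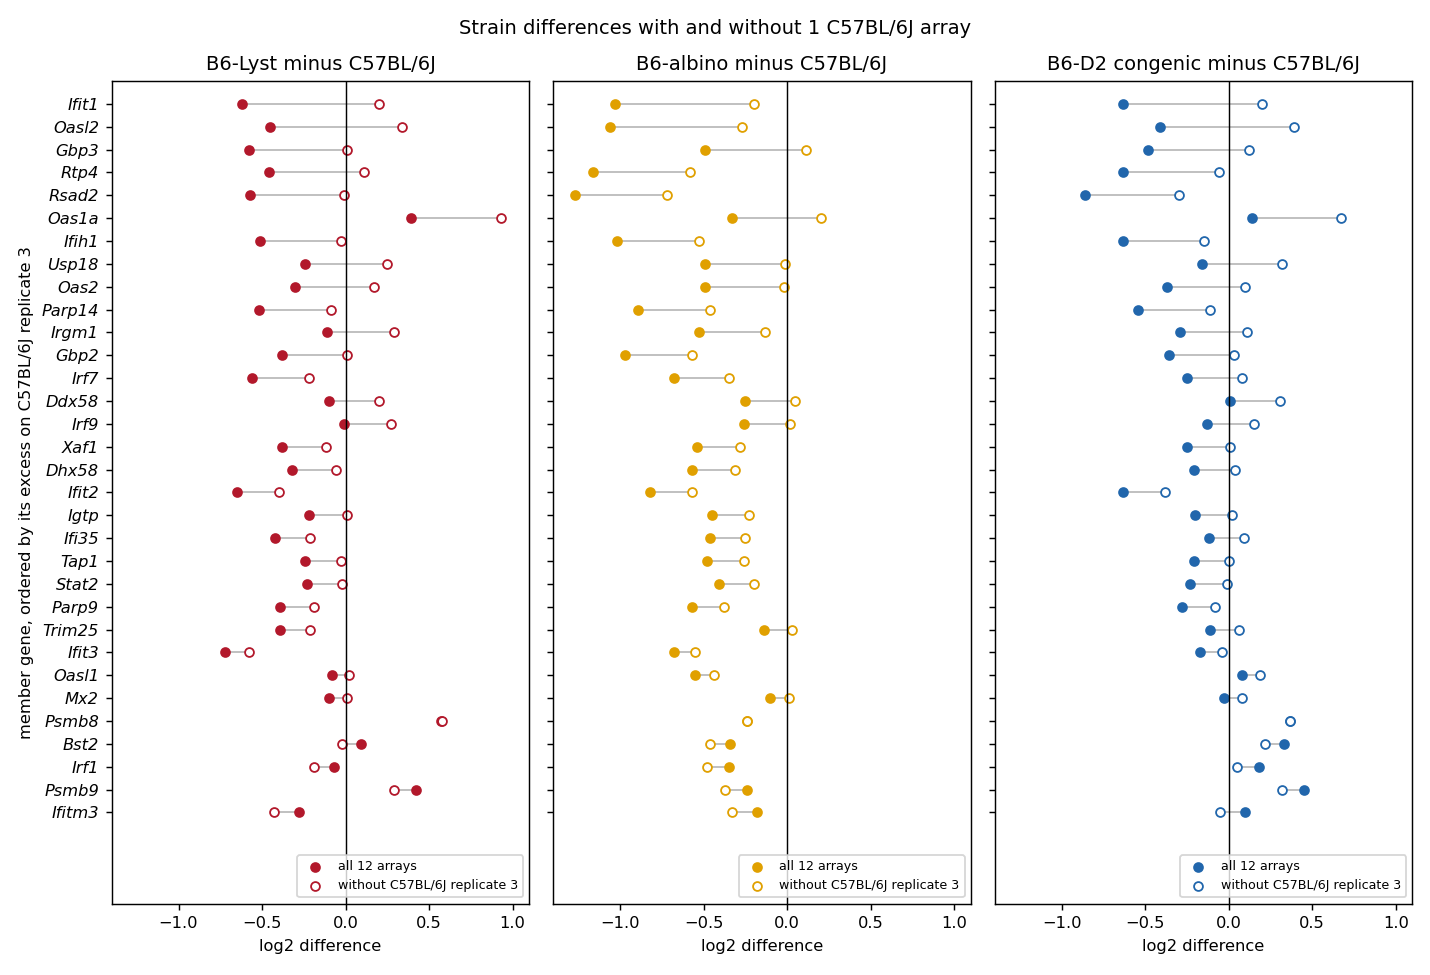
Log2 difference from C57BL/6J (x axes) of each tested member (y axis, ordered by its excess on C57BL/6J replicate 3) in 3 mutant strains, fitted on all 12 arrays (filled) and without C57BL/6J replicate 3 (open). The open points centre on medians of 0.00 for B6-Lyst, -0.28 for B6-albino and 0.07 for B6-D2 congenic.

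B6-albino was low in the members without reference to C57BL/6J as well. It had the lowest mean of the 3 mutant strains for 27 of 32 members, where it was lowest for 32.3% of all tested genes, and B6-Lyst was lowest for the other 5. Against B6-D2 congenic all 32 members were lower, with a median of -0.35 (1.27-fold) and a range of -0.69 to -0.01, beside a median of -0.02 over all genes. The arrays did not overlap for 7 of them, Rsad2, Gbp2, Oasl2, Oas1a, Ifih1, Rtp4 and Parp14, where 5.79% of all probe sets were lower without overlap. No member was called, and the smallest adjusted p was 0.518. The most negative values were those of Psmb9 at -0.69 (SE 0.27), Bst2 at -0.67 (SE 0.35) and Oasl2 at -0.66 (SE 0.49).

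Against B6-albino, B6-Lyst had 27 members higher and 5 lower, with a median of 0.25 (1.19-fold), beside -0.07 over all genes. The arrays did not overlap for 12 higher members and for 1 lower member, Trim25, where 11.5% of all probe sets were higher and 18.7% lower without overlap. The smallest adjusted p was 0.104, for Psmb8. Without C57BL/6J replicate 3, which changes no B6-Lyst or B6-albino value, Rsad2 (0.70, SE 0.14, adjusted p = 0.0332), Oas1a and Rtp4 (0.69, SE 0.14, adjusted p = 0.0332) were called in this pair, where 2.31% of probe sets were called. With all 12 arrays the SE of Rsad2 was 0.35 and its adjusted p 0.306, and the SE of Rtp4 was 0.37 and its adjusted p 0.328. The differences of these 3 genes were the same with and without that array, and the SE was not. Because the array was singled out by the members' own values, these 3 calls are a description. B6-Lyst and B6-D2 congenic lay close, with 10 members higher and 22 lower, a median of -0.04 and a smallest adjusted p of 0.543. Without C57BL/6J replicate 3, 0 members were called for B6-Lyst or B6-albino against B6-D2 congenic (0.955% and 0.0888% of probe sets called). The median of B6-Lyst against B6-D2 congenic turned to 0.02 when arrays were scaled to a common 75th percentile, so it has no settled sign.

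Within B6-albino the arrays differed in step. Replicate 3 was the lowest of its strain for 29 members (90.6%), where it was lowest for 56.8% of all tested genes, and the lowest of all 12 arrays for 23 (71.9%, against 11.9%). The members' median deviation was -0.28, -0.06 and -0.56 on replicates 1, 2 and 3. Without replicate 3 the median of B6-albino was -0.40 against C57BL/6J, -0.22 against B6-D2 congenic with 28 members lower, and B6-Lyst exceeded it by 0.15. Lens markers averaged 13.13 on replicate 3, the highest of the 12 arrays, against 7.19 to 11.70 elsewhere, and photoreceptor markers averaged 10.62, also the highest. Iris markers averaged 11.14 there, against 11.55 and 11.74 on the other B6-albino arrays, and macrophage markers 8.10 against 8.68 and 8.52. The part of these tissues in the members' values was not tested.

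Spread within a strain followed the same arrays. The median SD of the members over 3 arrays was 0.49 in C57BL/6J, against 0.16 in B6-Lyst, 0.20 in B6-D2 congenic and 0.22 in B6-albino, beside 0.21, 0.14, 0.18 and 0.17 over all tested genes. Ifit1 had the widest member SD, 1.43 in C57BL/6J, and Stat2 and Trim25 the narrowest, 0.02 in B6-Lyst.

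C57BL/6J replicate 3 was the highest array for few genes upstream of the response, as it was for 11.6% of all tested genes. Of 19 interferon genes listed, 10 were on the array and 2, Ifna2 and Ifnz, passed the filter, with 0 called in any pair. Ifnz was highest of the 12 arrays on C57BL/6J replicate 3, at 7.34 against 6.44 to 7.13 elsewhere, and Ifna2 was lowest there, at 6.08. Ifnb1 read 4.78 to 5.16 and Ifng 3.93 to 4.31 over the 12 arrays, and C57BL/6J replicate 3 read 4.82 and 4.23, all below the filter value. Receptors, kinases and regulators of signalling (15 of 17 tested) had this array highest in 1 case (6.67%). Sensors, adaptors and factors that induce interferon (14 of 14 tested) had it highest in 3 (21.4%). Among these was the double-stranded RNA receptor Tlr3 at 8.81. The medians of the 2 lists on it relative to replicates 1 and 2 were -0.16 and 0.00, beside -0.14 over all tested genes.

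Every call in the upstream lists was a pair with B6-Lyst, and these pairs also had the most calls over all probe sets. The shares were 2.53% against C57BL/6J, 1.84% against B6-albino and 0.933% against B6-D2 congenic. B6-albino and B6-D2 congenic had 0.348% and 0.0407% against C57BL/6J, and 0.0851% against each other. The receptor and signalling list had 1 gene called higher against C57BL/6J and 0 lower. It was Ptpn6, a phosphatase of blood cells that restrains JAK signalling, with a rise of 0.63 (SE 0.12, adjusted p = 0.0216). Against B6-albino, Socs3, a feedback inhibitor of cytokine receptors, was higher by 1.14 (SE 0.18, adjusted p = 0.00562). The induction list had 2 genes called higher in B6-Lyst against each other strain. Irf8, a factor of the macrophage and dendritic lineages, read 8.30, 8.23 and 8.00 in B6-Lyst and 6.21 to 7.14 elsewhere, a rise of 1.94 over C57BL/6J (SE 0.17, adjusted p = 5.59e-05). Tlr7, an endosomal RNA receptor, read 6.59, 6.64 and 6.36 in B6-Lyst and 5.63 to 5.94 elsewhere, a rise of 0.73 (SE 0.11, adjusted p = 0.00566). Ptpn6, Irf8 and Tlr7 are expressed in macrophages, whose markers were called higher in B6-Lyst in 9 of 11 cases against C57BL/6J, 7 against B6-albino and 6 against B6-D2 congenic. Their part in these 3 values was not tested. All calls of these 2 lists were also made without C57BL/6J replicate 3, with adjusted p-values of 0.0476 for Ptpn6, 0.0205 for Tlr7 and 0.000367 for Irf8 against C57BL/6J.

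In the list of 65 other interferon-stimulated genes, 48 were tested. Against C57BL/6J, 1 was called higher and 1 lower in B6-Lyst, where 2.53% of all probe sets were called. In B6-albino 2 were called lower (0.348% of all probe sets called), and in B6-D2 congenic none (0.0407%). Cxcl11, of the chemokine family, read 7.02, 6.99 and 7.30 in C57BL/6J, against 6.35, 6.21 and 6.24 in B6-Lyst, 6.75, 6.44 and 6.26 in B6-D2 congenic and 6.16, 6.33 and 6.05 in B6-albino. All mutant arrays lay below C57BL/6J. It fell in B6-Lyst, with a difference of -0.83 (SE 0.14, adjusted p = 0.0106), and in B6-albino, with -0.92 (SE 0.14, adjusted p = 0.0357), and the difference in B6-D2 congenic was -0.62 (SE 0.14, adjusted p = 0.119). With C57BL/6J replicate 3 left out, the Cxcl11 differences were -0.73 in B6-Lyst (adjusted p = 0.0442) and -0.82 in B6-albino (adjusted p = 0.0901), so the second call was lost. Cd274 encodes the inhibitory ligand PD-L1, which is known in ocular immune privilege. It read 9.80, 9.17 and 9.86 in C57BL/6J, against 8.94, 9.07 and 8.83 in B6-Lyst, 8.89, 8.94 and 8.35 in B6-D2 congenic and 7.63, 7.83 and 7.71 in B6-albino. B6-albino lay below all arrays of every other strain. Cd274 fell in B6-albino, with a difference of -1.88 from C57BL/6J (SE 0.20, adjusted p = 0.0148), and it was higher in B6-Lyst than in B6-albino by 1.22 (SE 0.20, adjusted p = 0.00779). Leaving out C57BL/6J replicate 3 gave a difference of -1.76 (SE 0.21, adjusted p = 0.0476). Cd274 was 0.38 higher on that array than the mean of replicates 1 and 2. Slfn2, a regulator of lymphocyte quiescence, was higher in B6-Lyst than in C57BL/6J by 0.71 (SE 0.14, adjusted p = 0.0224) and than in B6-albino by 0.77 (SE 0.14, adjusted p = 0.016). The adjusted p-values were 0.0553 and 0.0196 without C57BL/6J replicate 3. That setting called 5 of the 48 higher in B6-Lyst than in B6-albino, which were Slfn2, Cd274, Isg20 (0.49), Ifi47 (0.54) and H2-D1 (1.57).

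Most of the other interferon-stimulated genes also lay low in B6-albino. In B6-albino 38 of 48 were lower than in C57BL/6J, with a median of -0.35, and 37 were lower than in B6-D2 congenic, with a median of -0.17. In B6-Lyst 29 of 48 were lower than in C57BL/6J, with a median of -0.11, and 38 were higher than in B6-albino, with a median of 0.22. In B6-D2 congenic 32 were lower than in C57BL/6J, with a median of -0.19. Once C57BL/6J replicate 3 was left out, the counts against C57BL/6J were 32 lower of 48 in B6-albino (median -0.22), 24 in B6-Lyst (median 0.01) and 26 in B6-D2 congenic (median -0.04).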

How the data were processed

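RNA of pooled irides was measured on 12 Affymetrix arrays, 3 per strain, and per the labels' protocols it was labelled as biotinylated cRNA. The values the authors deposited are on the log2 scale, as read from their range of 2.98 to 14.29. How they were background-corrected, normalized and summarised is not given in the sources used here. Precision is limited by the number of arrays, and the files give no detection call.

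Genes were named from the platform annotation through probe sets with 1 symbol (34945 of 45037, with 932 holding several symbols and 9160 none), updated through a RefSeq table of GRCm38.p6 (34741 matched). The 64 control probe sets were left out. Probe sets with a mean over 12 arrays at or above the 40th percentile were tested, and the highest-mean tested probe set stands for a gene.

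One limma 3.58.1 model (R 4.3.3) with a mean per strain, an intensity trend and prior degrees of freedom of 3.57 was fitted to all 12 arrays, with two-sided tests of 6 pairs and Benjamini-Hochberg adjustment over 27022 probe sets. It was tested on simulated data for B6-Lyst against C57BL/6J, where among 27022 probe sets it recovered 74% of the 100 changed by 1 log2 unit, 96% of the 100 changed by 2, and made 6 false calls.

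Members and lists were chosen with earlier results of these data known, so lists carry no test. Array-by-array values are given for the 3 largest rises and falls among members in each pair and for the members with the 2 highest and 2 lowest means over the arrays. Irf1, Oasl1, Gbp2 and genes named by their value on C57BL/6J replicate 3 were added after their values were seen. Promoter sequences are RefSeq's. Alternatives changed the scaling, filter, prior, probe sets, covariates, weights and arrays.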

Additional observations from a re-analysis of the deposited data

How the results depend on the processing

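The count of 0 members called held in all 6 pairs under 75th percentile scaling, quantile normalization, no filter, a filter at the 60th percentile, no intensity trend, the actin covariate, the mean of a gene's probe sets and without the 3 arrays with high Krt12. Limma's array weights gave 4 members called for B6-Lyst, 16 for B6-albino and 2 for B6-D2 congenic against C57BL/6J, and 7 for B6-Lyst against B6-albino, with Oas1a called in all 4 of these pairs. There the medians against C57BL/6J were 0.12, -0.10 and 0.21. Their estimation stopped before it converged, C57BL/6J replicate 2 alone had a weight of 23.06 and the lowest weight was 0.2632, and 30.9%, 56.0%, 16.0% and 26.5% of all probe sets were called in these 4 pairs. Fitted on the 6 arrays of the pair alone, B6-Lyst against B6-albino had 1 member called, Oas1a (adjusted p = 0.0337), where 2.58% of all probe sets were called. The difference of Ifit1 between B6-Lyst and C57BL/6J reversed to 0.16 with array weights and to 0.20 without C57BL/6J replicate 3, and that of Oasl2 between B6-albino and C57BL/6J reversed to 0.05 with array weights. The cause was not tested.

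Leaving out each of the 12 arrays in turn gave 0 to 1 members called for B6-Lyst against C57BL/6J, 0 to 3 for B6-Lyst against B6-albino and 0 to 0 for the other 4 pairs, and each call came without C57BL/6J replicate 3. The medians ranged from -0.54 to 0.00 for B6-Lyst, from -0.73 to -0.28 for B6-albino and from -0.42 to 0.07 for B6-D2 congenic against C57BL/6J. They ranged from 0.15 to 0.34 for B6-Lyst against B6-albino, from -0.13 to 0.04 for B6-Lyst against B6-D2 congenic and from -0.46 to -0.22 for B6-albino against B6-D2 congenic. The most negative medians against C57BL/6J came without C57BL/6J replicate 2. Over these settings Ifit1 ranged from -1.05 to 0.20, Ifit2 from -0.83 to -0.40 and Ifit3 from -0.86 to -0.47 in B6-Lyst. In B6-albino Rsad2 ranged from -1.59 to -0.72, Rtp4 from -1.47 to -0.58 and Oasl2 from -1.60 to -0.27, and in B6-D2 congenic Rsad2 ranged from -1.18 to -0.30, Ifih1 from -0.88 to -0.15 and Rtp4 from -0.94 to -0.06.

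With the replicate number as a block, 0 members were called in every pair and the medians against C57BL/6J were -0.31, -0.49 and -0.21. The deviations of 18 same-numbered pairs of arrays correlated from -0.434 to 0.389, with 6 above 0.1. Replicates 3 of C57BL/6J, B6-Lyst and B6-albino correlated with each other at 0.37 to 0.387, and with that of B6-D2 congenic at -0.43 to -0.217. Differently numbered arrays reached 0.533. The deviations are from means of only 3 arrays, so these values cannot decide whether the numbers pair the samples.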
